A study of Mus musculus with 16 samples.

Results

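The genes described here are 37 genes of skeletal muscle that were read in RNA from fat depots of mice. They were taken by symbol from the deposited tables of brown fat and of epididymal and inguinal white fat. All 37 were listed in each of the 3 fat tables, which together held 24544 symbols. They code for the thick filament (11 genes), the thin filament (11), the Z-disc and its stretch sensors (4), calcium handling and excitation (6), and energy and oxygen supply (5). By textbook knowledge, 12 are typical of fast fibres, 8 are typical of slow fibres, and 17 are shared by fibre types or not assigned here. The mice were C57BL/6, 24 weeks old, and received sunitinib (Sutent), an inhibitor of receptor tyrosine kinases such as the VEGF and PDGF receptors, or vehicle. The series names 8 mice with 4 per treatment, and each tissue had 2 sunitinib and 2 vehicle libraries of TRIzol-extracted total RNA, which makes 12 fat libraries among 16 in all. No allele or further agent is named, and neither dose nor length of treatment is given in the sources used here. No label ties a library to a mouse or to a pool of mice, so every p-value covers only the spread between libraries, which may be technical.

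Skeletal muscle fibres contract when calcium released from the sarcoplasmic reticulum binds troponin C and frees actin for the myosin heads. Fast fibres and slow fibres build this machine from different gene copies, such as Myh4 and Myh7 for the myosin heavy chain or Tnnc2 and Tnnc1 for troponin C. Fat cells are not known for sarcomeres, and brown and inguinal fat lie next to skeletal muscle, with myoblast-like ancestry as a further trait of brown adipocytes. In bulk RNA, fewer muscle cells and less muscle RNA per cell cannot be told apart.

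Myogenic factors of the MyoD family bind the E-box, CANNTG, and factors of the TEAD family bind the MCAT motif, CATTCC. The promoters of the heavy chain pair and of the troponin C pair are shown because these are fast and slow copies of the same part that stood apart in the libraries described below. The sequences are from RefSeq on the build GRCm38.p6 and run from 250 bases before to 50 bases after the start, 5′ to 3′ on the gene's strand, with every E-box in capitals. The expression tables were made on another build, mm9, and hold no coordinates. The Myh4 window is chr11:67237562-67237861 on the plus strand and the Myh7 window is chr14:54994577-54994876 on the minus strand. The Tnnc2 window is chr2:164779685-164779984 on the minus strand and the Tnnc1 window is chr14:31208062-31208361 on the plus strand.
Myh4: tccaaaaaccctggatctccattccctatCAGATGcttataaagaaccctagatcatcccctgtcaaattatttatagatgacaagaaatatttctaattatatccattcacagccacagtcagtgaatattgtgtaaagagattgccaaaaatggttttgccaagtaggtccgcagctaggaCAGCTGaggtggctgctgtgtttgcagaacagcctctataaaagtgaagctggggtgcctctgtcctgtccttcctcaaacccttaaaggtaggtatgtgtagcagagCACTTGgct
Myh7: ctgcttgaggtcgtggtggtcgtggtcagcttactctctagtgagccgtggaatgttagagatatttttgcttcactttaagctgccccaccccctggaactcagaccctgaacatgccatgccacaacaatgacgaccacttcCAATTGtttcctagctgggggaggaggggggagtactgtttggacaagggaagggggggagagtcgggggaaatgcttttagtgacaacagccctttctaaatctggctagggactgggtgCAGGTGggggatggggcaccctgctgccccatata
Tnnc2: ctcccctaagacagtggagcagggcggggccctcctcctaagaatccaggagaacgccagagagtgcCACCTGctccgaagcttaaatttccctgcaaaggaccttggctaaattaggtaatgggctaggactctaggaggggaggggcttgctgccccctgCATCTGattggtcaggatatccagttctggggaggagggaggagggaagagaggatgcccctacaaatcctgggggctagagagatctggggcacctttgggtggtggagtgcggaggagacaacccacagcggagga
Tnnc1: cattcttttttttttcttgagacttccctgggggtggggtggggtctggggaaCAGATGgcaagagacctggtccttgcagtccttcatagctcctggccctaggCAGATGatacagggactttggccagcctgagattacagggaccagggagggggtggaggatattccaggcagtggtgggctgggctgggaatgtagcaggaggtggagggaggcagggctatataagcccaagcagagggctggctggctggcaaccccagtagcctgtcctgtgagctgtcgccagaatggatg
The Myh4 window held 3 E-boxes, and the windows of Myh7, Tnnc2 and Tnnc1 held 2 each. MCAT, searched on both strands and counted without regard to the E-boxes, was found in the windows of Myh4, Myh7 and Tnnc1. Of the 37 genes, 33 had a promoter in the table, and 28 of these 33 (84.8%) held an E-box, against 72.1% of all 27025 promoters of this length. All 8 slow-fibre promoters held an E-box, and 6 of the 9 fast-fibre promoters in the table did. MCAT was in 12 of the 33 promoters (36.4%), against 14.6% of all promoters. These are matches of letters and not measured binding.

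Values are regularized log2 expression (rlog), which the authors normalised for each tissue on its own. An rlog difference of 1 is nominally a doubling, shrunk towards no change where reads are few. The test took in every gene whose rlog averaged 3 or more in a tissue, which gave 13044 genes in brown fat, 15526 in epididymal fat and 14916 in inguinal fat. Brown fat matched its label by Ucp1, the uncoupling protein of brown fat, at 16.46 to 16.93 rlog in its table. Ucp1 was at 5.84 to 7.58 in the epididymal table and 4.66 to 5.30 in the inguinal table. These tables were normalised apart, and Ucp1 does not check the labels of the white depots. Adipoq, an adipocyte hormone, was at 13.46 to 16.21 rlog in the fat libraries. In epididymal fat, the library sunitinib 1 held Crisp1, a secretory protein of the epididymal duct, at 12.66 rlog, against 5.98 to 6.21 in the other libraries of that depot. In the inguinal table, sunitinib 2 stood apart, with the highest value for 35% of all genes and the lowest for 36.6%.

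**Figure D1:**
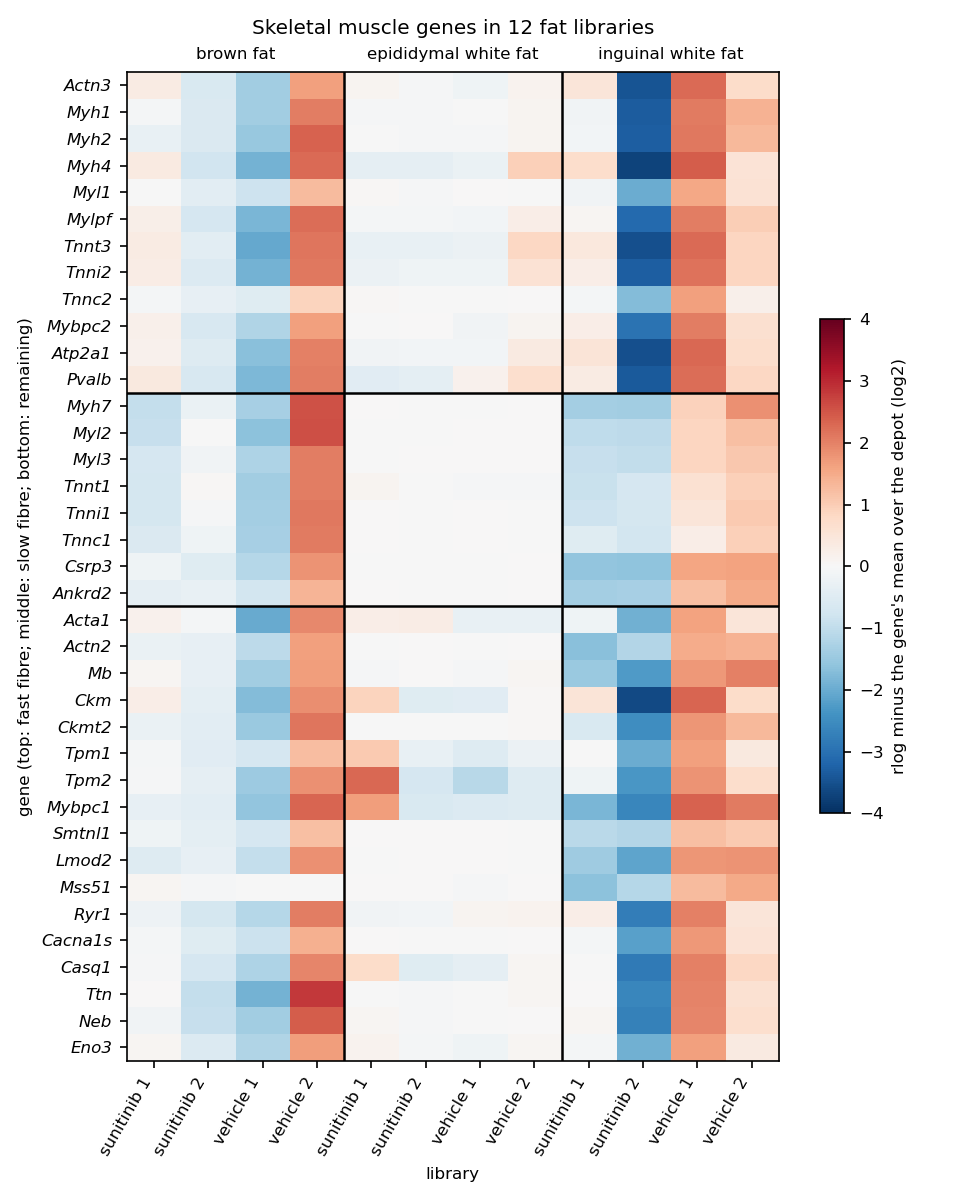
Each cell is the rlog value (log2) of 1 gene in 1 library minus that gene's mean over the 4 libraries of the depot, with fast-fibre genes on top, slow-fibre genes in the middle and the remaining genes below. Brown fat vehicle 2 is red for 36 of 37 genes, and inguinal sunitinib 2 is blue for all 37.

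In brown fat, the muscle genes divided the 2 vehicle libraries and not the treatments. For 36 of the 37 genes vehicle 2 was the highest of the 4 libraries, as it was for 25.6% of all genes tested, and for 36 of 37 vehicle 1 was the lowest, as it was for 25.6% of all genes. Vehicle 2 exceeded vehicle 1 by a median of 3.41 rlog over the 37 genes, with -0.01 over all genes tested. The 2 sunitinib libraries lay between them. Relative to each gene's mean over the depot, the median of the 37 genes was -0.08 and -0.43 rlog in sunitinib libraries 1 and 2, against -1.38 and 2.02 in vehicle libraries 1 and 2. The exception was Mss51, a mitochondrial-associated protein of muscle, at 3.53 and 3.43 rlog in sunitinib libraries, against 3.44 and 3.46 in vehicle libraries. Acta1, the actin of skeletal muscle, was at 11.19 and 10.93 rlog with sunitinib, against 9.01 and 12.93 with vehicle.

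Among thick filament genes of brown fat, the widest spread of any member belonged to Ttn, the giant spring of the sarcomere, which had 9.45 and 8.46 rlog in sunitinib libraries 1 and 2, against 7.53 and 12.26 in vehicle libraries 1 and 2. Myh4, the heavy chain of the fastest fibres, had 10.97 and 9.84 rlog with sunitinib, against 8.72 and 12.86 with vehicle. Myh7, the slow heavy chain, had 6.43 and 7.14 rlog with sunitinib, against 6.07 and 9.94 with vehicle. For each of these genes the vehicle values enclosed both sunitinib values, so the groups overlapped. The light chains showed the same order of the vehicle libraries. Mylpf, the fast regulatory light chain, had 10.22 and 9.31 rlog in sunitinib libraries, against 8.16 and 12.23 in vehicle libraries. Its slow partner Myl2 had 7.44 and 8.34 rlog with sunitinib, against 6.71 and 10.92 with vehicle. Between the sunitinib libraries the fast light chain was higher in library 1 and the slow one in library 2. For the essential light chains, fast Myl1 had 11.10 and 10.68 rlog with sunitinib, against 10.29 and 12.37 with vehicle. Slow Myl3 had 6.98 and 7.48 rlog with sunitinib, against 6.38 and 9.69 with vehicle. Myosin-binding protein C tethers the thick filament, and its fast form Mybpc2 had 8.02 and 7.18 rlog with sunitinib, against 6.62 and 9.45 with vehicle. Its slow-type form Mybpc1 had 8.23 and 8.14 rlog with sunitinib, against 6.99 and 10.91 with vehicle, and so differed little between the sunitinib libraries. Myh1, Myh2 and Myh4 are near-identical copies, as are Myh7 and the heart gene Myh6, and reads may have been split between them.

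Among thin filament genes of brown fat, Tnnt3, the fast troponin T that anchors the complex to tropomyosin, had 10.78 and 10.04 rlog in sunitinib libraries 1 and 2, against 8.39 and 12.60 in vehicle libraries 1 and 2. Slow Tnnt1 had 7.09 and 7.85 rlog with sunitinib, against 6.42 and 9.83 with vehicle. The fast copy was thus higher in sunitinib 1 than in sunitinib 2 and the slow copy lower. Troponin I, the inhibitory subunit, gave 10.13 and 9.26 rlog with sunitinib, against 7.95 and 11.95 with vehicle, for fast Tnni2. Slow Tnni1 gave 7.02 and 7.67 rlog with sunitinib, against 6.35 and 9.84 with vehicle. The sunitinib libraries again crossed over between the fast and the slow copy. Fast Tnnc2, the calcium sensor, was low at 5.34 and 5.09 rlog with sunitinib, against 4.93 and 6.31 with vehicle. Slow Tnnc1 had 7.14 and 7.53 rlog with sunitinib, against 6.37 and 9.78 with vehicle.

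At the Z-disc of brown fat, fast Actn3, an actin crosslinker, had 8.81 and 7.86 rlog with sunitinib, against 7.09 and 10.11 with vehicle, and Actn2, the crosslinker of all fibres, had 7.71 and 7.64 rlog with sunitinib, against 6.91 and 9.60 with vehicle. Pvalb, the calcium buffer of fast fibres, had 10.25 and 9.24 rlog with sunitinib, against 8.08 and 11.92 with vehicle. Ckmt2, the mitochondrial creatine kinase of sarcomeric muscle, had 7.85 and 7.71 rlog with sunitinib, against 6.65 and 10.27 with vehicle. All 4 genes had their highest value in vehicle 2 and their lowest in vehicle 1.

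Fast-fibre and slow-fibre genes ran in opposite directions between the 2 sunitinib libraries of brown fat. All 12 fast-fibre genes were higher in sunitinib 1 than in sunitinib 2, with a median of 0.79 rlog and a range of 0.25 for Tnnc2 to 1.13 for Myh4. Of the 8 slow-fibre genes 7 were lower in sunitinib 1, with a median of -0.58 rlog and a lowest value of -0.91 for Myl2. Csrp3, the muscle LIM protein of the Z-disc, was the exception at 0.33. Over all genes tested the median was -0.00 and 48.4% were higher in sunitinib 1. No such division appeared between the vehicle libraries, where vehicle 2 exceeded vehicle 1 by a median of 3.76 rlog in fast-fibre genes and 3.41 in slow-fibre genes.

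**Figure D2:**
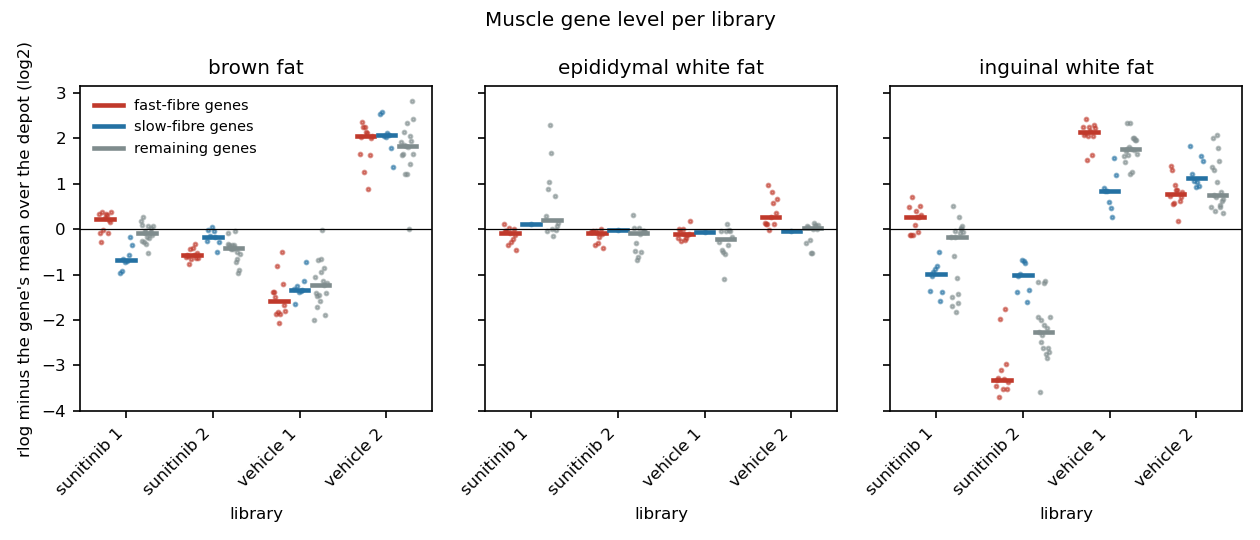
Points are genes and bars are medians of fast-fibre (red), slow-fibre (blue) and remaining genes (grey), as rlog minus the gene's mean over the depot (log2), for each library of the 3 depots. In brown fat all classes peak in vehicle 2, and in inguinal fat the fast-fibre median is 0.28 in sunitinib 1 and -3.32 in sunitinib 2 while the slow-fibre median is -0.98 and -1.01.

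The sunitinib comparison in brown fat passed the test for 0 of 37 muscle genes in limma at an adjusted p below 0.05, as for all genes, of which 0% were called in each direction. At an unadjusted p below 0.05, 0 muscle genes were called, against 9.13% of all genes called higher and 6.98% called lower. For 0 of 37 genes both sunitinib libraries lay below both vehicle libraries (24% of all genes), and for 0 both lay above (26.2%). The log2 difference, sunitinib minus vehicle, was negative for 35 of 37 genes, against 51.6% of all genes, with a median of -0.58 over the 37 genes and -0.00 over all genes. By role, its median was -0.76 for the thick filament, -0.54 for the thin filament, -0.61 for the Z-disc, -0.56 for calcium handling and -0.26 for energy and oxygen supply. For Myh4 it was -0.38 ± 1.32 and for Myh7 -1.22 ± 1.21 (SE, n = 2 libraries each), with adjusted p of 0.896 and 0.633 in limma.

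The direction in brown fat turned with the vehicle library left out. Without vehicle 1, 36 of 37 genes fell with sunitinib, with a median of -2.20, while limma called 6.29% of all genes lower and 3.62% higher. Without vehicle 2, 35 of 37 rose, with a median of 0.99, while 2.83% of all genes were called higher and 2.2% lower. Mss51 did not pass in either fit and Tnnc2 did not pass in the fit without vehicle 2, where its difference was 0.29 (adjusted p = 0.0728). Without sunitinib 1 and without sunitinib 2 the medians of the 37 genes were -0.71 and -0.42, and neither fit had any gene past the test. In fits with 1 library in a group, that library was assumed to vary like the other group.

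**Figure D3:**
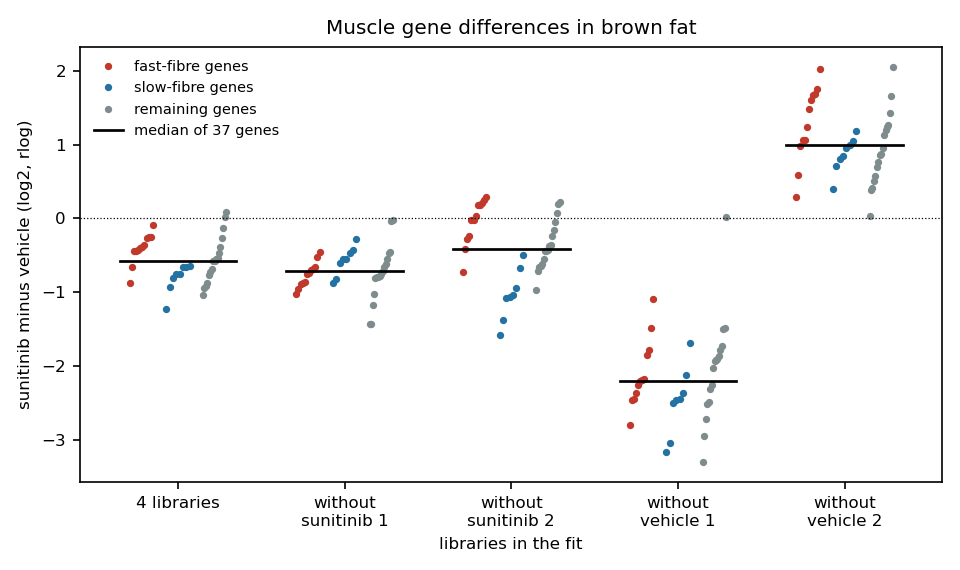
Points are log2 differences, sunitinib minus vehicle, of the 37 muscle genes in brown fat with all 4 libraries and without each library in turn, and black bars are medians. The median is -2.20 without vehicle 1 and 0.99 without vehicle 2.

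Other muscle genes of brown fat were highest in the same library. Of 38 skeletal muscle genes that are not members, 38 were highest in vehicle 2 and 34 lowest in vehicle 1, with a median range over the libraries of 2.18 rlog and the narrowest range, 0.20, for Mybph. The 8 smooth muscle genes ranged over 0.18 to 0.44 rlog only. Of 8 heart genes 5 were listed, and Myh6 had 5.89 and 6.28 rlog with sunitinib, against 5.58 and 8.25 with vehicle. The further heart genes Tnnt2 and Tnni3 stayed at 1.37 rlog or lower in every brown fat library. Some lists of further cell types also set vehicle 2 apart, by less. Relative to the gene means, the 6 endothelial genes were lowest there in 6 of 6 (median -0.41 rlog), the 5 hepatocyte genes highest in 5 of 5 (0.27) and the 5 macrophage genes tested highest in 4 of 5 (0.19). In vehicle 1 the medians of these lists were -0.03, -0.15 and 0.04 rlog. The endothelial genes were also higher in both sunitinib libraries than in both vehicle libraries in 6 of 6, and the macrophage genes lower in 3 of 5. Of 10 adipocyte genes 2 were highest in vehicle 2, and of 10 brown adipocyte genes 0. The part of these cell types in the muscle gene values was not tested. The part that muscle tissue carried over with the depot may have in these values was not tested.

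In inguinal fat, 36 of the 37 muscle genes were lower in both sunitinib libraries than in both vehicle libraries, against 26.4% of all genes tested. All 37 had a negative difference, against 48.6% of all genes, with a median of -2.75 over the 37 genes and 0.01 over all genes. The exception was Myh4, which had 14.59 and 10.19 rlog in sunitinib libraries 1 and 2, against 16.30 and 14.43 in vehicle libraries 1 and 2. None of these differences passed the test. In limma 0 members and 0% of all genes were called in each direction, and the smallest adjusted p of the table was 0.200, for Csrp3. At an unadjusted p below 0.05, 20 of 37 muscle genes were lower and 0 higher, against 8.8% of all genes lower and 3.88% higher. These 20 included 8 of 8 slow-fibre genes and 3 of 12 fast-fibre genes. By role, the median difference was -2.75 for the thick filament, -2.10 for the thin filament, -2.92 for the Z-disc, -2.66 for calcium handling and -3.08 for energy and oxygen supply. The range over the 4 libraries ran from 1.70 rlog for Tnnc1 to 6.11 for Myh4.

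Slow-fibre genes of inguinal fat were close between the sunitinib libraries and somewhat higher in vehicle 2 than in vehicle 1. Csrp3 had 4.45 and 4.44 rlog with sunitinib, against 7.61 and 7.65 with vehicle, a difference of -3.19 ± 0.14. Myh7 had 4.26 and 4.25 rlog with sunitinib, against 6.55 and 7.46 with vehicle, a difference of -2.75 ± 0.34 (adjusted p = 0.289 in limma, SE, n = 2 libraries each). The groups of both genes were separate by more than the gap between replicates. Myl2 had 4.44 and 4.42 rlog with sunitinib, against 6.32 and 6.67 with vehicle, and Myl3 had 4.14 and 4.10 with sunitinib, against 5.93 and 6.15 with vehicle. Tnnt1 had 4.51 and 4.72 rlog with sunitinib, against 6.00 and 6.33 with vehicle, and Tnni1 had 4.08 and 4.20 with sunitinib, against 5.36 and 5.93 with vehicle. Tnnc1 had 4.18 and 3.94 rlog with sunitinib, against 4.96 and 5.64 with vehicle, so its vehicle libraries differed by nearly as much as the closest values of the groups. All 8 slow-fibre genes were highest in vehicle 2, where 22.8% of all genes had their highest value, and vehicle 2 exceeded vehicle 1 in 8 of 8 by a median of 0.34 rlog. The sunitinib libraries differed by a median of 0.01 rlog over these genes, with 5 of 8 higher in sunitinib 1. The sunitinib values printed here, 3.94 to 4.72 rlog, lay near the filter of 3, and rlog values are shrunk where reads are few. The part of that shrinkage in the closeness of these values, in their SEs and in the unadjusted calls of slow-fibre genes was not tested.

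Fast-fibre genes of inguinal fat varied within both groups. The 12 genes were all highest in vehicle 1, where 19.1% of all genes had their highest value. All 12 were higher in sunitinib 1 than in sunitinib 2, with a median of 3.41 rlog, and all 12 were lower in vehicle 2 than in vehicle 1, with a median of -1.41. The median of sunitinib 1 minus vehicle 2 was -0.47 rlog for fast-fibre genes and -2.12 for slow-fibre genes. Myh4 had the widest range of any gene in the inguinal table, 6.11 rlog, and its difference of -2.98 ± 1.66 had an adjusted p of 0.488 in limma. Mylpf had 11.48 and 8.29 rlog with sunitinib, against 13.46 and 12.37 with vehicle, and Myl1 had 12.15 and 10.30 with sunitinib, against 13.81 and 12.84 with vehicle. Tnnt3 had 12.95 and 9.02 rlog with sunitinib, against 14.80 and 13.39 with vehicle. For these genes the gap between the sunitinib libraries was wider than the gap between sunitinib 1 and the vehicle libraries. Tnni2 had 11.58 and 8.00 rlog with sunitinib, against 13.48 and 12.17 with vehicle. Tnnc2 had 6.58 and 4.90 rlog with sunitinib, against 8.28 and 6.84 with vehicle. Mybpc2 had 11.26 and 8.02 rlog with sunitinib, against 13.04 and 11.61 with vehicle. In each of them sunitinib 1 lay below vehicle 2. Atp2a1, the calcium pump of fast fibres, had 13.02 and 9.00 rlog with sunitinib, against 14.82 and 13.22 with vehicle. Actn3 had 11.81 and 7.86 rlog with sunitinib, against 13.58 and 12.05 with vehicle.

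Genes shared by fibre types divided between these patterns in inguinal fat. Ckm, the cytosolic creatine kinase of muscle, followed the fast-fibre genes with 12.30 and 8.18 rlog with sunitinib, against 14.11 and 12.52 with vehicle. Mybpc1 had 6.97 and 6.17 rlog with sunitinib, against 11.14 and 10.86 with vehicle, and its difference of -4.43 ± 0.31 was the lowest of all genes tested in this depot. Actn2 had 5.84 and 6.35 rlog with sunitinib, against 9.00 and 8.90 with vehicle. Mybpc1 and Actn2 lay with the slow-fibre genes in that their groups lay further apart than their replicates. So did 2 genes chosen after their values were seen. Mb, the oxygen store myoglobin, had 7.55 and 6.77 rlog with sunitinib, against 10.76 and 11.04 with vehicle, and Mss51 had 5.40 and 5.88 with sunitinib, against 8.28 and 8.53 with vehicle. The remaining 17 members as a class had their highest value in vehicle 1 in 14 genes and in vehicle 2 in 3.

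**Figure D4:**
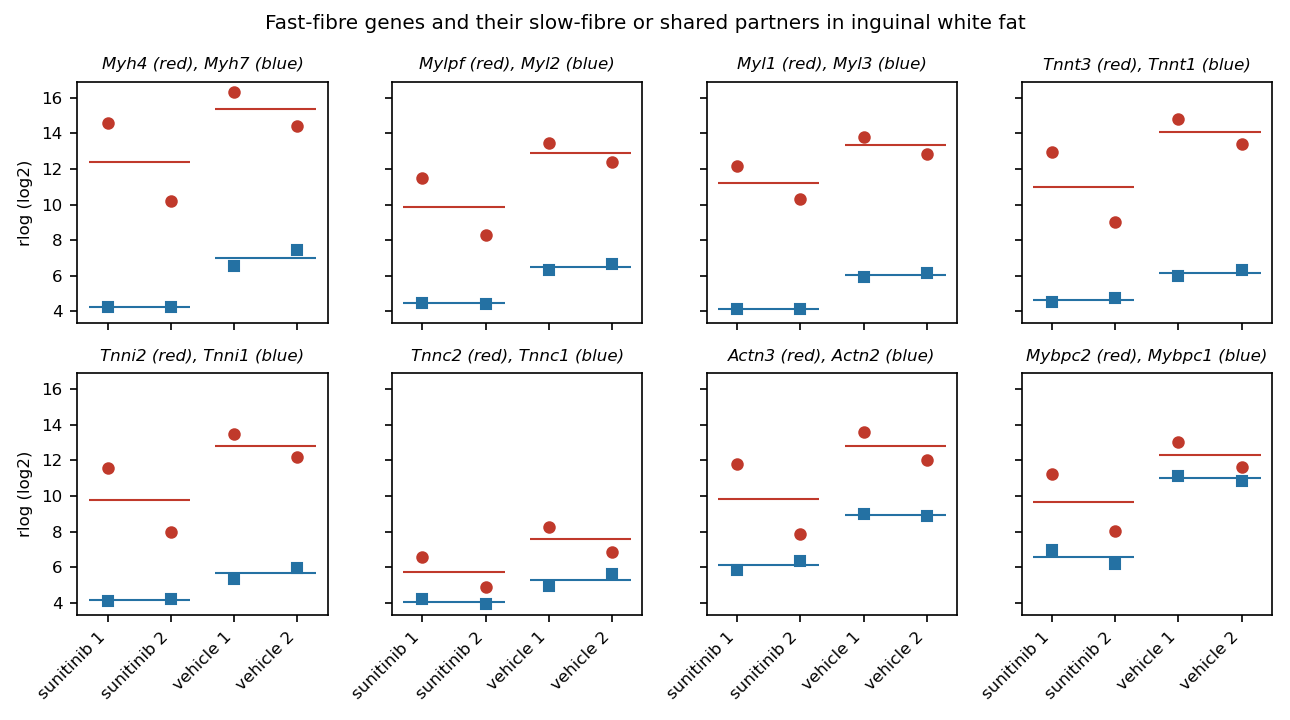
Each panel shows the rlog values (log2) of a fast-fibre gene (red circles) and its slow-fibre or shared partner (blue squares) in the 4 inguinal libraries, with lines at the group means. Blue values are close between the sunitinib libraries, while red values are lower in sunitinib 2, as for Myh4 with 14.59 and 10.19 in the sunitinib libraries against 4.26 and 4.25 for Myh7.

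Divided by transcript length, the fast heavy chain exceeded the slow one in every fat library, though Myh7 lay below the filter in epididymal fat. The level of Myh4 minus that of Myh7, in rlog per kilobase of annotated transcript, was 10.38 and 5.99 with sunitinib, against 9.80 and 7.02 with vehicle, in inguinal fat. In brown fat it was 4.60 and 2.75 with sunitinib, against 2.70 and 2.97 with vehicle. The fast copy was thus further above the slow one in every inguinal library than in any brown fat library, though the tables were normalised apart and no test was made. Troponin C ran the other way in brown fat, where Tnnc2 minus Tnnc1 per kilobase was -1.75 and -2.39 with sunitinib, against -1.40 and -3.43 with vehicle. In inguinal fat Tnnc2 minus Tnnc1 was 2.44 and 1.0 with sunitinib, against 3.36 and 1.25 with vehicle. In epididymal fat, where both genes lay below the filter, it was -0.45 and -0.49 with sunitinib, against -0.51 and -0.47 with vehicle. Mybpc2 minus Mybpc1 was likewise negative in every brown and epididymal library and positive in every inguinal library. The other fast and slow pairs were positive in every fat library. In epididymal fat Myl2, Myl3, Tnni1 and Actn2 lay below the filter, so their pairs set a tested fast gene against shrunken values.

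Leaving out libraries moved the inguinal counts. Without sunitinib 1, 37 of 37 muscle genes fell, while 11.5% of all genes were called lower and 16% higher. Without sunitinib 2, the library that stood apart over all genes, 16 of 37 fell with a median of -1.42, while 3.09% of all genes were called lower and 1.82% higher. Those genes were Mybpc1, Mb, Actn2, Lmod2, Mss51, Smtnl1, Ckmt2, Myh1, Myh2 and the slow-fibre genes Csrp3, Ankrd2, Myh7, Myl2, Myl3, Tnni1 and Tnnt1. Among them Lmod2, a leiomodin, lengthens the thin filament, Ankrd2 responds to stretch, and Myh1 and Myh2 are heavy chains of the intermediate fast fibres. Without vehicle 1 the median difference of the members was -2.21, and without vehicle 2 it was -3.25, but neither fit had any gene past the test.

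Further muscle lists lay with the members in inguinal fat. Of 37 tested skeletal muscle genes that are not members, 35 were lower in both sunitinib libraries than in both vehicle libraries and 36 were highest in vehicle 1, with a median difference of -2.30. Among them Myoz1 had the widest range, 5.25 rlog, and Mybph the narrowest, 0.81. The list of satellite cell genes and myogenic factors, which includes Myf6 and Mef2c, was highest in vehicle 1 in 4 of 4 genes tested. Developmental myosins and receptor subunits of the nerve-muscle junction were highest there in 5 of 5. The median difference of 8 smooth muscle genes was -0.28, with 7 of them highest in vehicle 1, and that of 10 adipocyte genes was -0.08. The share of muscle tissue in each inguinal library was not measured, and its part in the differences was not tested.

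In epididymal fat, the differences of the muscle genes with sunitinib had a median of 0.00 rlog. Levels ran from below 0 for Csrp3 to 10.70 to 12.26 rlog for Tpm1. Only 24 of the 37 reached the mean of 3, which left 13 untested, among them 7 of 8 slow-fibre genes. Over all genes tested the median difference was 0.01. The difference was negative for 12 of 24 members, against 46.7% of all genes. Of the 24 genes 1 rose and 0 fell, against 0.277% of all genes called higher and 2.06% called lower. The gene that rose was Acta1, which had 10.51 and 10.54 rlog with sunitinib, against 9.94 and 9.92 with vehicle. Its difference of 0.59 ± 0.06 (SE, n = 2 libraries each) had an adjusted p of 0.0230 in limma. Both sunitinib libraries lay above both vehicle libraries, but without vehicle 1 the adjusted p was 0.220 and without vehicle 2 it was 0.265, in fits that called 0 genes in all. Actins share much sequence, so part of its reads may belong to another actin gene. At an unadjusted p below 0.05, 2 members were lower, Pvalb and Ryr1, and 1 higher, against 11.9% and 8.14% of all genes. Pvalb had 5.67 and 5.72 rlog with sunitinib, against 6.31 and 6.80 with vehicle, a difference of -0.86 ± 0.17 (adjusted p = 0.0804 in limma). Ryr1, the calcium release channel, had 5.60 and 5.64 rlog with sunitinib, against 5.86 and 5.89 with vehicle, a difference of -0.26 ± 0.06 (adjusted p = 0.101 in limma). Over all 24 genes, both sunitinib libraries were below both vehicle libraries in 5 (26.8% of all genes) and above them in 3 (27%).

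Fast-fibre genes of epididymal fat were mostly highest in vehicle 2. Of 11 tested, 10 were highest there, against 22.9% of all genes, and vehicle 2 exceeded vehicle 1 by a median of 0.37 rlog. Myh4 had 5.18 and 5.19 rlog with sunitinib, against 5.28 and 6.50 with vehicle, and Tnnt3 had 4.96 and 4.95 with sunitinib, against 5.01 and 6.07 with vehicle. Tnni2 had 4.90 and 4.94 rlog with sunitinib, against 4.93 and 5.69 with vehicle. Mylpf had 4.18 and 4.18 rlog with sunitinib, against 4.17 and 4.54 with vehicle. In each of these genes vehicle 1 lay close to the sunitinib libraries and vehicle 2 alone was higher. Myl1 was level at 9.52 and 9.45 rlog with sunitinib, against 9.49 and 9.48 with vehicle. Mybpc2 had 4.57 and 4.59 rlog with sunitinib, against 4.44 and 4.70 with vehicle, and Actn3 had 5.50 and 5.31 with sunitinib, against 5.19 and 5.50 with vehicle. Some lists of other cell types were highest in the same library. This held for 6 of 6 endothelial genes (median of 0.35 rlog above the gene means in vehicle 2 and -0.06 in vehicle 1) and 5 of 6 macrophage genes (0.76 and 0.66). In these lists 4 of 6 endothelial and 6 of 6 macrophage genes were lower in both sunitinib libraries than in both vehicle libraries. Of 10 adipocyte, 5 hepatocyte, 8 smooth muscle and 7 epithelial or duct genes 0 were highest in vehicle 2, and of 9 brown adipocyte genes 2. The part of these cell types in the fast-fibre values was not tested. The slow partners were level or below the filter. Tnnt1 had 4.75 and 4.61 rlog with sunitinib, against 4.58 and 4.60 with vehicle. Myh7, Myl2, Myl3, Tnni1, Tnnc1 and the fast gene Tnnc2 ranged over 0.08 rlog or less, as did Actn2, and all lay below the filter.

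Sunitinib 1 of epididymal fat was high in a different set of genes. Tpm2, a tropomyosin that covers the myosin sites of actin and is also made in smooth muscle, had 12 and 9.02 rlog with sunitinib, against 8.61 and 9.19 with vehicle. Mybpc1 had 7.25 and 4.97 rlog with sunitinib, against 5.02 and 5.05 with vehicle. The same library stood out for Casq1, the calcium store of the reticulum, with 7.59 and 6.36 rlog with sunitinib, against 6.51 and 6.94 with vehicle. Ckm had 6.75 and 5.40 rlog with sunitinib, against 5.42 and 5.92 with vehicle. In each of these genes sunitinib 2 lay at or below vehicle 2, so the groups overlapped. In sunitinib 1 the smooth muscle list was highest in 8 of 8 genes, against 4143 of all 15526 genes tested. Its median there was 1.61 rlog above the gene's mean over the depot. Within that list Cnn1, a calponin of smooth muscle, had 11.81 and 7.80 rlog with sunitinib, against 6.59 and 7.57 with vehicle, and Acta2, the smooth muscle actin, had the smallest range at 1.13 rlog. The same library held the high Crisp1 value given above. The part of smooth muscle or epididymal tissue in the values of Tpm2, Mybpc1, Casq1 and Ckm was not tested. Without sunitinib 2, which leaves sunitinib 1 alone, 5 members rose, namely Acta1, Ckm, Mybpc1, Tpm1 and Tpm2, while 4.13% of all genes were called higher.

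**Figure D5:**
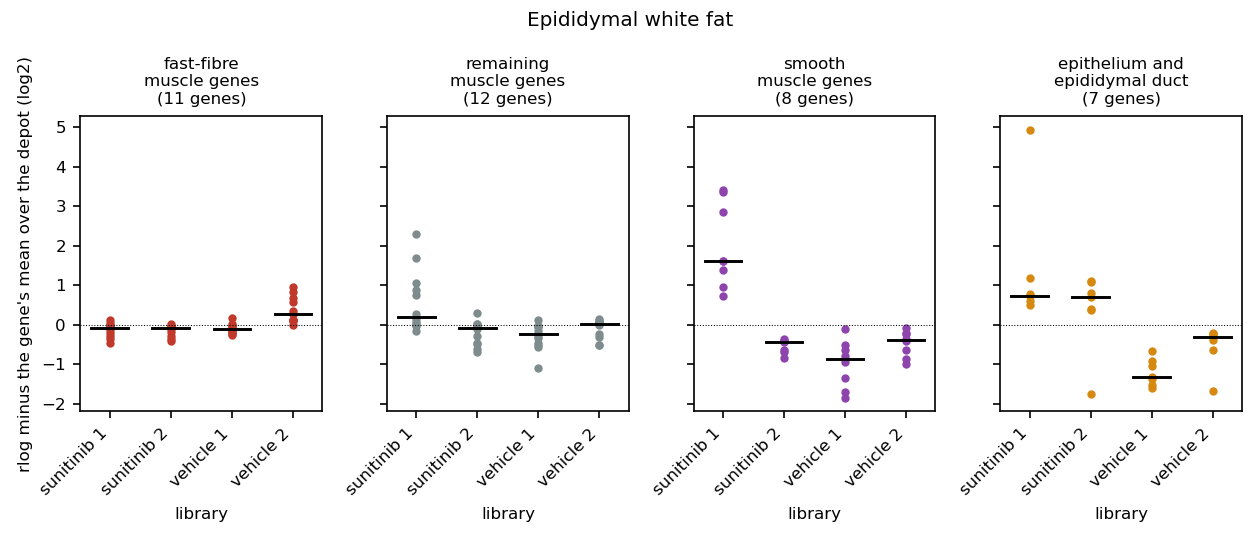
Points are genes and bars are medians of the tested fast-fibre, remaining, smooth muscle and epithelial or duct genes in the 4 epididymal libraries, as rlog minus the gene's mean over the depot (log2). Smooth muscle genes are highest in sunitinib 1 in 8 of 8 cases, and fast-fibre genes in vehicle 2 in 10 of 11.

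Liver, the tissue of the series that is not fat, listed 31 of the muscle genes and had 12 above the filter. In limma 0 of 12 passed, against 0.121% of all genes called higher and 0.0726% called lower, and 5 were lower and 0 higher at an unadjusted p below 0.05, against 5.17% and 3.47% of all genes. Csrp3 was the member with the widest liver range, at 8.43 and 8.59 rlog in sunitinib libraries 3 and 4, against 8.99 and 8.79 in vehicle libraries 1 and 2. Myh4 was at 3.64 and 3.55 rlog with sunitinib, against 3.59 and 3.53 with vehicle.

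Differences between depots were tested as the sunitinib effect in one depot minus that in the other. For brown minus inguinal fat 1 of 37 muscle genes passed, and 0.0314% of all genes were called higher and 0% lower. At an unadjusted p below 0.05, 3 members were higher and 0 lower, against 8.64% and 5% of all genes. It was Mss51, with a difference of effects of 2.80 ± 0.24 (adjusted p = 0.0453 in limma, n = 2 libraries in each of 4 groups). The effect was 0.03 in brown fat and -2.77 in inguinal fat, from the values given above. Without an inguinal sunitinib library the call of Mss51 stood, and without any other library it was lost, with adjusted p from 0.159 to 0.530. Without brown fat vehicle 2 another member, Csrp3, passed instead, with a difference of effects of 3.99 ± 0.22 (adjusted p = 0.0494 in limma). For brown minus epididymal fat 0 of 24 members passed in limma, against 2.99% of all genes called higher and 0.648% called lower, and at an unadjusted p below 0.05 it was 0 members in each direction, against 13.4% of all genes higher and 8.55% lower. For inguinal minus epididymal fat 0 of 24 members and 0% of all genes in each direction passed in limma, and 10 members were lower and 0 higher at an unadjusted p below 0.05, against 5.68% and 4.38% of all genes. The inguinal median of -2.75 covers 37 genes and the epididymal median of 0.00 covers 24, so they are not over the same genes. In the main fit no single member was shown to differ between these depots. With no filter 8 of 37 members passed as lower, against 10 of 20861 genes in all. That fit also took in members below the filter in epididymal fat, where rlog values are shrunk most. With quantile normalization 1 of 24 members passed as lower, against 1 of 14352 genes in all.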

How the data were processed

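Per the labels, total RNA was sequenced from brown, epididymal and inguinal fat and liver. The submitters' processing notes name bcl2fastq 2.17.1.14, TopHat2 2.1.1, bedtools, DESeq2 and the mouse build mm9, without roles. The sources used here give no annotation, counting settings or strand. The authors deposited 1 table per tissue of regularized log2 values, which are shrunk towards each gene's mean, so differences, SEs and p-values of low genes are understated or altered. Depth per library is unknown. Levels are compared between tissues only as within-table values.

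Genes with a mean of at least 3 in a tissue went into a fit per tissue (limma 3.58.1, R 4.3.3, variance trend on the mean level). Passing means a Benjamini-Hochberg adjusted p below 0.05 over all of them, two-sided. Differences of effects came from a fit over both tissues. An exact permutation test of 2 against 2 libraries cannot go below 0.333, so none was run. Fits were tested on simulated data. Lengths per kilobase are of GENCODE transcripts on GRCm38, which need not be the authors' annotation. Names of the sunitinib livers follow the titles.

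The members and lists were chosen with earlier results of these data known. Library values are given for members past the test in a depot, both genes of 8 fast and slow pairs, and the member with the widest range per depot and role. Mb, Mss51 and genes named for a count were chosen after their values were seen. Alternatives were another filter, quantile normalization, no trend, each library left out and a replicate block.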

Additional observations from a re-analysis of the deposited data

Results flagged for a closer look

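For Mss51 the sunitinib effect differed between brown and inguinal fat by a test of the difference itself. The effect in brown fat minus that in inguinal fat was 2.80 on the log2 scale (adjusted p = 0.0453 in limma), from 3.53 and 3.43 rlog with sunitinib, against 3.44 and 3.46 with vehicle, in brown fat and 5.40 and 5.88 with sunitinib, against 8.28 and 8.53 with vehicle, in inguinal fat. The call was lost with no filter on low values (adjusted p = 0.0983), with the replicate block (0.218) and without any 1 of 6 libraries (0.159 to 0.530). Its level in brown fat was close to the filter, where rlog values are shrunk most, and the part of that shrinkage in the difference was not tested.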

How the results depend on the processing

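Counts of muscle genes past the test ran, with each library left out in turn, over 0 to 36 in brown fat, 0 to 5 in epididymal fat, 0 to 37 in inguinal fat and 0 to 2 in liver. For effects between depots they ran over 0 to 13 for brown minus epididymal fat, 0 to 1 for brown minus inguinal fat and 0 to 24 for inguinal minus epididymal fat. In each of these comparisons the number of all genes past the test also changed widely with the library left out. The ranges of the counts alone thus do not set the muscle genes apart from the whole table. Each of these fits had 1 library in a group, which was assumed to vary like the other libraries. With each library left out, the median difference of the muscle genes ran over -2.20 to 0.99 in brown fat and -3.89 to -1.42 in inguinal fat. In brown fat the sign of single genes turned with the library left out, for Myh4 over -2.45 to 1.68, for Myh7 over -3.16 to 0.71 and for Mss51 over -0.025 to 0.078. Brown minus inguinal fat gave 0 genes with no filter, with a mean of at least 5, which leaves Mss51 out, and with the replicate block. Inguinal minus epididymal fat gave 8 with no filter and 1 with quantile normalization, against 0. Over all genes these fits called 10 of 20861 and 1 of 14352 lower, and the fit with no filter included members below it in epididymal fat. With a mean of at least 5, the muscle level of epididymal sunitinib 2 was -0.23 rlog, against -0.08.

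Libraries with the same replicate number need not be paired. The correlation of their deviations was -0.256 in brown fat, 0.224 in epididymal fat and 0.108 in inguinal fat, with 2 pairs in each. With the number as a replicate block 2 genes passed in epididymal fat, Acta1 higher and Pvalb lower, and 0 in brown and inguinal fat, and over all epididymal genes 254 were called higher and 424 lower, against 43 and 320. The crossed pairing in brown fat, added after seeing the data, gave 0. At an unadjusted p below 0.05, the block gave 37 of 37 lower members in inguinal fat, against 20 without it (1035 of all genes, against 1313). For inguinal minus epididymal fat it gave 23 of 24, against 10 (786 of 14352 genes in all, against 815). There no filter gave 21 of 37 (1162 of 20861 genes) and a mean of at least 5 gave 6 of 16 (653 of 11753). In liver 3 of 12 members were lower with no trend (607 of 12394 genes) and 3 of 5 with a mean of at least 5 (522 of 9977). The main liver fit gave 5 of 12 (641 of 12394). No other alternative moved a count of muscle genes past the adjusted test by over 1.5 times, or a median or library level by more than the spread between replicates. Depth is unknown, so no floor can be set for the 13 genes below the filter in epididymal fat. The cause of these shifts was not tested.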
